A study of Mus musculus with 6 samples.

Results

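The genes described here encode the proteins of the cytosolic ribosome. They were taken from the deposited table as the protein-coding mouse genes named Rpl or Rps with a digit, together with Rplp0, Rplp1, Rplp2, Rpsa and Fau, wherever the mean over the 6 libraries reached 10 CPM. CPM are counts divided by the normalised size of their library, a scale on which libraries of different depth can be compared. S6 kinase genes, the RPS19-binding protein gene Rps19bp1 and every symbol ending in -ps were left out. The rule gave 83 of the 35727 genes of the table, 49 of the large subunit and 34 of the small subunit. Of these, 78 are the classical genes and 5 are paralogs (Rpl7l1, Rpl22l1, Rpl36al, Rps27l and Rps27rt).

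RNA was sequenced from mouse undifferentiated pleomorphic sarcoma cells that had been sorted for red fluorescence out of tumours. The shPostn group, 3 libraries, carried a viral hairpin against Postn, which encodes the secreted matrix protein periostin. The shSCR group, 3 libraries, carried a scrambled hairpin. Both groups came from the same cell line, called p53 KO Ccne1 OE, which goes back to mesenchymal stem cells of female C57/Bl6 p53KO mice. That line had received a retroviral vector for Ccne1 (cyclin E1) and RFP (the red fluorescent tracer), and had been passaged through female wild-type C57/Bl6 mice under the skin. The mice that bore the sequenced tumours are described only as experimental mice, with no age. The titles name the shPostn group a knockout although the protocol describes a hairpin, and neither a clone of the line nor a further hairpin is named. Whether the libraries of a group were separate tumours is not stated, so each p-value measures the spread between these samples, which may be technical.

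A ribosome has a small subunit, which holds the messenger RNA and reads its codons, and a large subunit, which joins the amino acids and lets the new chain out through a tunnel. Each subunit is a scaffold of ribosomal RNA bound by many small proteins, nearly all made in equal numbers from genes scattered over the chromosomes, so that a cell must match the output of unlinked genes. Their messenger RNAs begin with a run of pyrimidines, the terminal oligopyrimidine or TOP motif, through which the kinase mTOR and the protein LARP1 control their translation together. Growing tumour cells devote much of their transcription to ribosomes.

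Counts summed to 19603269 to 19931734 per shPostn library and to 19847860 to 20376554 per shSCR library. Postn measured 217, 471 and 638 CPM in the shPostn libraries, against 4095, 3600 and 3223 CPM in the shSCR libraries, a log2 fold change of −3.04 (SE 0.41, edgeR adjusted p = 0.0126; exact two-sided permutation p = 0.1, the smallest that 3 against 3 libraries allow). Its adjusted p was 0.0532 without shSCR replicate 1 and 0.0542 without shSCR replicate 2. All 10 mesenchymal markers were expressed. Of them 1, Eng, was lower in shPostn (log2 fold change −2.35, edgeR adjusted p = 0.0219), where edgeR called 10.1% of all genes tested. The summed level of the 10 mesenchymal markers was 28560 to 49140 CPM in shPostn and 37560 to 42020 CPM in shSCR. A list of 5 keratinocyte genes summed to 0.404 to 2.60 CPM in shPostn and 1.02 to 1.71 CPM in shSCR; Krt5 and Krt15 of that list had 0 counts in every library.

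Most ribosomal protein genes did not pass the test. With edgeR's quasi-likelihood test and Benjamini-Hochberg adjustment over all 12819 genes tested, at a threshold of 0.05, 4 of the 83 passed. Rpl36al was higher in shPostn, and Rps14, Rpl17 and Rps6 were lower. That is 4.82% of the family, beside 10.1% of all genes tested (4.61% higher and 5.53% lower). By subunit, 1 large-subunit gene was higher and 1 lower out of 49, and 2 small-subunit genes were lower out of 34. The groups did not overlap for 20 ribosomal protein genes (4 higher, 16 lower), or 24.1%, beside 33.6% of all genes tested. The libraries are bulk samples, in which fewer cells of a type and less RNA per cell cannot be told apart.

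The 4 genes that passed lie on chromosomes 18, 12 and 4, each next to many other genes that differed the same way. Chromosomes 12 and 18 were chosen from earlier results of these data, and chromosome 4 because it carries the remaining gene that passed. Over the other tested genes above 4 CPM, the median log2 fold change was −0.45 on chromosome 18 (279 genes), 0.39 on chromosome 12 (371 genes) and −0.14 on chromosome 4 (660 genes). On every other chromosome that holds a ribosomal protein gene the median lay between −0.052 (chromosome 7) and 0.076 (chromosome 11). When each chromosome's median was taken out of the model, 0 of the 83 passed, beside 5.06% of all genes tested; 9 were then lower and 0 higher at an unadjusted p under 0.05, and the lowest adjusted p was 0.0831, for Rpl12. Without that step, 0 of the 73 genes off chromosomes 4, 12 and 18 passed in edgeR. That count was fixed by the choice of chromosomes, which took in every gene that passed. At an unadjusted p under 0.05, 9 of the 73 were lower and 0 higher, beside 13.5% lower and 13.4% higher among all genes tested. DESeq2 called 4 of the 73 lower (Rpl12, Rps16, Rps24 and Rps26), where it called 15.4% of all genes, and limma-voom called 0.

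**Figure D1:**
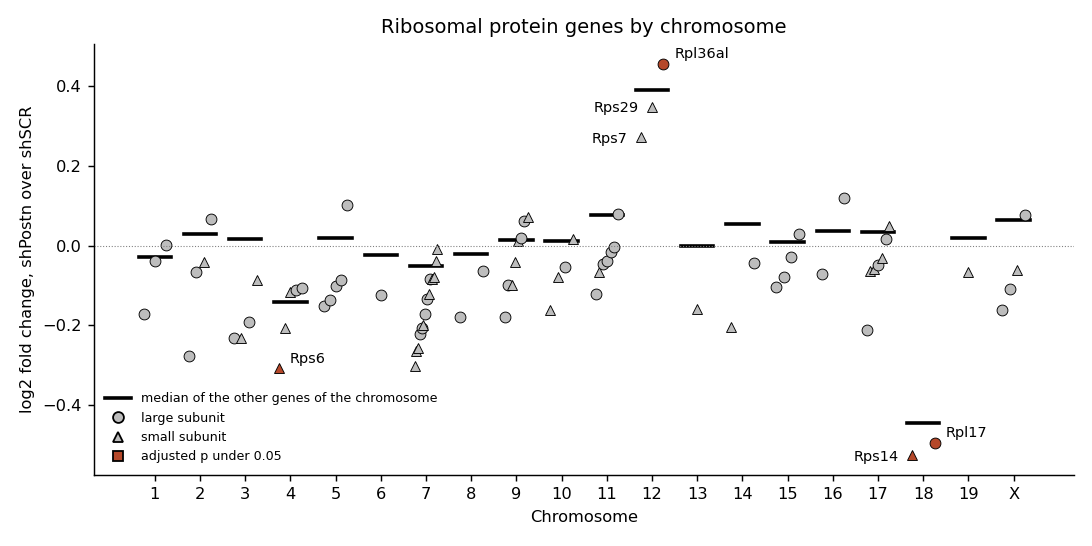
Log2 fold change of shPostn over shSCR for each of the 83 ribosomal protein genes (circles, large subunit; triangles, small subunit; filled red, adjusted p under 0.05), placed by chromosome, with a bar at the median of the chromosome's other genes. The genes of chromosome 12 sit between 0.27 and 0.46 and those of chromosome 18 at −0.49 and −0.53, near their chromosome's bar, and all 14 genes of chromosome 7 sit below 0.

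Both ribosomal protein genes of chromosome 18 fell in shPostn. Rps14 (chr18:60747098-60778546 in GRCm38, plus strand) encodes a small-subunit protein whose single-copy loss in human myelodysplasia impairs red cell formation. It measured 893, 748 and 806 CPM in shPostn, against 1184, 1127 and 1211 CPM in shSCR. Every shPostn library was below every shSCR library, and the shPostn level was 69.45% of the shSCR level (log2 fold change −0.53, SE 0.086, adjusted p = 0.0134). Rpl17 (chr18:74998558-75003381, plus strand) encodes a large-subunit protein that lines the exit tunnel for the new chain. It measured 681, 591 and 621 CPM in shPostn, against 889.5, 860.0 and 917 CPM in shSCR, again with no overlap, and reached 71.0% of the shSCR level (log2 fold change −0.49, SE 0.078, adjusted p = 0.0119). With the chromosome's median taken out, the log2 fold change was −0.080 for Rps14 (adjusted p = 0.627) and −0.048 for Rpl17 (adjusted p = 0.757). Their nearest tested neighbours, within 5 Mb, had a median of −0.42 around Rps14 (40 genes, 34 of them negative) and −0.45 around Rpl17 (26 genes, 23 negative). Both calls were lost when any shSCR library was left out, in fits that called 2.36% to 3.3% of all genes (10.1% with all libraries). Without shSCR replicates 1, 2 and 3 in turn, the adjusted p was 0.0615, 0.0611 and 0.0685 for Rps14 and 0.0572, 0.0576 and 0.0629 for Rpl17, with log2 fold changes that stayed between −0.56 and −0.47.

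The ribosomal protein genes of chromosome 12 had positive log2 fold changes, and the paralog Rpl36al passed. Rpl36al (chr12:69182731-69184083, minus strand) encodes a variant of the large-subunit protein Rpl36a, which sits where spent transfer RNA leaves the ribosome. It measured 118, 112 and 111 CPM in shPostn, against 83.5, 87.1 and 77.5 CPM in shSCR. All shPostn libraries were above all shSCR libraries (log2 fold change 0.46, SE 0.065, adjusted p = 0.00896), and the gene passed with any library left out (0.41 to 0.49, adjusted p 0.00485 to 0.0452). Rps29 (chr12:69157722-69159186, minus strand), a small zinc-binding protein of the small subunit, lies 23.55 kb from Rpl36al. It measured 364, 340 and 260 CPM in shPostn, against 232, 243 and 282 CPM in shSCR, so that shPostn replicate 3 fell inside the shSCR range (log2 fold change 0.35, SE 0.14, adjusted p = 0.160). Rps7 (chr12:28630854-28635953, minus strand), a small-subunit protein that can bind MDM2, measured 1673, 1326 and 1148 CPM in shPostn, against 1127, 1153 and 1156 CPM in shSCR, with overlap again through shPostn replicate 3 (log2 fold change 0.27, SE 0.14, adjusted p = 0.251).

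Rps29 and Rps7 depended on which shPostn libraries entered. Without shPostn replicate 3, Rps29 passed at 0.48 on the log2 scale (adjusted p = 0.0119) and Rps7 at 0.39 (adjusted p = 0.0364), in a fit that called 17.1% of all genes. Without shPostn replicate 1, Rps29 stood at 0.25 (adjusted p = 0.332) and Rps7 at 0.11 (adjusted p = 0.437). The chromosome's other genes were lowest in shPostn replicate 3 among the shPostn group: relative to the shSCR mean their median was 0.49, 0.40 and 0.25 on the log2 scale in shPostn replicates 1, 2 and 3. Rpl36al measured about the same in all 3 shPostn libraries. The 43 tested neighbours of Rps29 and Rpl36al within 5 Mb all had positive log2 fold changes, with a median of 0.43, and the 27 around Rps7 had a median of 0.33 with 24 positive. With the chromosome's median taken out, the log2 fold change was 0.066 for Rpl36al (adjusted p = 0.590), −0.042 for Rps29 (adjusted p = 0.889) and −0.12 for Rps7 (adjusted p = 0.646), so that the signs of Rps29 and Rps7 depend on that step.

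Chromosome 4 holds 5 ribosomal protein genes, Rps6, Rps20, Rpl11 and Rpl22 among them, all with negative log2 fold changes. Rps6 (chr4:86854660-86857412, minus strand), the small-subunit protein that the S6 kinases phosphorylate downstream of mTOR, fell in shPostn. It measured 883, 804 and 861 CPM in shPostn, against 1035, 1036 and 1083 CPM in shSCR. The groups did not overlap, and the shPostn level was 80.8% of the shSCR level (log2 fold change −0.31, SE 0.070, adjusted p = 0.0376). With the chromosome's median of −0.14 taken out, Rps6 stood at −0.16 (adjusted p = 0.221). Within 5 Mb of Rps6, 16 tested genes had a median of −0.24, and 14 of them were negative. The call was lost without shPostn replicate 2 (adjusted p = 0.111) and without shSCR replicates 1, 2 and 3 (0.121, 0.136 and 0.145). Those fits called 4.89% of all genes without shPostn replicate 2, and 3.3%, 2.36% and 3.1% without shSCR replicates 1, 2 and 3. Rpl11, which with Rpl5 and the smallest ribosomal RNA can bind MDM2, had a log2 fold change of −0.11 with no overlap (adjusted p = 0.365). Rpl22 and Rps20 had −0.11 and −0.12 with overlapping groups. With the chromosome's median taken out, Rpl11, Rpl22 and Rps20 stood at 0.037, 0.031 and 0.027, on the other side of 0 from Rps6. The 14 tested genes within 5 Mb of Rps20 had a median of −0.022, with 7 negative and 7 positive, unlike those around Rps6. Whether the chromosome was lower along its whole length was not tested.

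**Figure D2:**
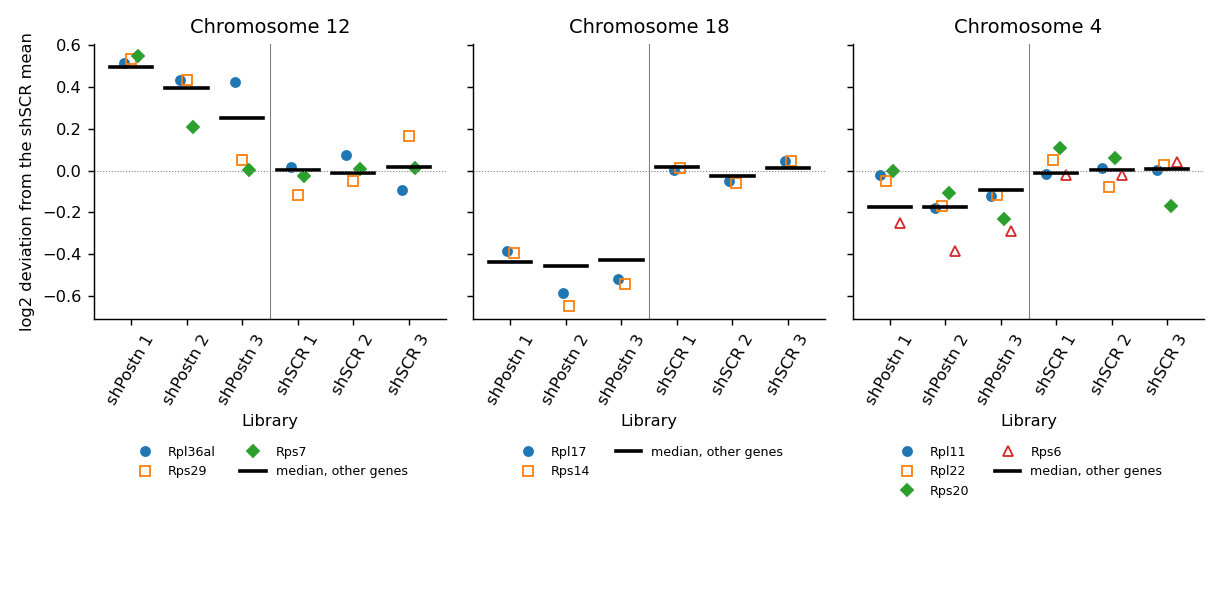
Log2 deviation of the named ribosomal protein genes of chromosomes 12, 18 and 4 from their shSCR means (symbols), by library, with a bar at the median of the chromosome's other genes. On chromosome 12 the bars of shPostn replicates 1, 2 and 3 stand at 0.49, 0.40 and 0.25 and Rps29 and Rps7 drop to the shSCR level in replicate 3; on chromosome 18 the bars lie between −0.46 and −0.43.

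Off these chromosomes, 73 ribosomal protein genes had log2 fold changes between −0.30 and 0.12, and 59 of them were negative. Chromosome 7 carries the most, with 9 small-subunit genes, among them Rps3, Rps9, Rps13, Rps15a, Rps16 and Rps19, and the large-subunit genes Rpl13a, Rpl18, Rpl27a, Rpl28 and Rplp2. All 14 had negative log2 fold changes, with a median of −0.15, while the other 755 genes of the chromosome had a median of −0.052. In edgeR 0 of the 14 passed, beside 10.1% of all genes, a count fixed in the same way by the choice of chromosomes. At an unadjusted p under 0.05, 3 were lower, beside 13.5%. DESeq2 called Rps16. The groups did not overlap for 4 of the 14, beside 33.6% of all genes. The difference lay in shPostn replicates 2 and 3. Relative to the shSCR mean, the median of the 14 was 0.022, −0.23 and −0.27 in shPostn replicates 1, 2 and 3, and that of the chromosome's other genes was −0.018, −0.069 and −0.092. Without shPostn replicate 1, edgeR called 5 of the 14 lower, among them Rps16 (log2 fold change −0.40, adjusted p = 0.0194), Rpl27a (−0.35, 0.0316), Rpl18 (−0.33, 0.0372) and Rps15a (−0.29, 0.0390), in a fit that called 7.23% of all genes. With any other library left out, none of the 14 was called, in fits that called 2.36% to 17.1% of all genes. With all libraries, Rps16, whose tail reaches the transfer RNA in the decoding site, measured 444, 366 and 367.5 CPM in shPostn, against 476, 504 and 473 CPM in shSCR (log2 fold change −0.30, SE 0.092, adjusted p = 0.0836).

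The remaining chromosomes held few genes each. That 0 of theirs passed in edgeR, beside 10.1% of all genes tested, follows from the choice of chromosomes 4, 12 and 18. Chromosome 9 carries Rpsa, Rps25, Rps27l, Rps27rt, Rpl4, Rpl14, Rpl29 and Rplp1, with log2 fold changes from −0.18 to 0.072. Chromosome 11 carries Rps27a, Rpl19, Rpl23, Rpl23a, Rpl26, Rpl27 and Rpl38, from −0.12 to 0.079. Chromosome 17 carries Rps2, Rps10, Rps18, Rps28, Rpl7l1, Rpl10a and Rpl36, from −0.21 to 0.049. Large-subunit genes alone lie on chromosome 1 (Rpl7, Rpl31 and Rpl37a), chromosome 5 (Rpl5, Rpl6, Rpl9, Rpl21 and Rplp0), chromosome 6 (Rpl32), chromosome 8 (with Rpl13), chromosome 15 (Rpl3, Rpl8, Rpl30 and Rpl37) and chromosome 16 (Rpl24 and Rpl35a). Small-subunit genes alone lie on chromosome 13 (Rps23) and chromosome 19 (Fau, which encodes a ubiquitin-like protein fused to a small-subunit protein). Both kinds lie on chromosome 2 (Rps21, Rpl7a, Rpl12 and Rpl35), chromosome 3 (Rps3a1, Rps27, Rpl22l1 and Rpl34), chromosome 10 (Rps12, Rps15, Rps26 and Rpl41), chromosome 14 (Rps24 and Rpl15) and chromosome X (Rps4x, Rpl10, Rpl36a and Rpl39). The highest log2 fold change of all these was 0.12 for Rpl24, a large-subunit gene whose groups did not overlap (adjusted p = 0.359). Rpl12, of the stalk base of the large subunit, had the lowest off chromosome 7, at −0.28 (SE 0.083, adjusted p = 0.0808).

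As a family, the genes were slightly lower in shPostn in replicates 2 and 3 and not in replicate 1. The median log2 fold change was −0.079 over the 83 genes, beside 0.0089 over all genes tested and 0.012 over the 2160 genes of at least 100 CPM. It was −0.085 for the large and −0.079 for the small subunit, and 66 of the 83 genes were negative. Relative to the shSCR mean, the family's median was 0.021, −0.12 and −0.17 in shPostn replicates 1, 2 and 3, against −0.025, 0.0099 and 0.019 in the shSCR libraries. The 83 genes took 6.07%, 5.64% and 5.36% of all counts in shPostn, against 5.97%, 6.11% and 6.06% in shSCR (5.69 ± 0.36% and 6.045 ± 0.070%, SD, n = 3 each). The groups overlap through shPostn replicate 1, and the spread of the shPostn libraries is as large as the difference of the means. The median log2 fold change was −0.13 without shPostn replicate 1 and −0.031 without shPostn replicate 3. Large-subunit counts were 1.22, 1.21 and 1.25 times the small-subunit counts in shPostn, against 1.21, 1.23 and 1.22 times in shSCR.

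The library with the lowest ribosomal protein level also had the most macrophage RNA. The summed level of 10 macrophage markers was 118, 53.1 and 1100.0 CPM in shPostn replicates 1, 2 and 3, against 222, 159.7 and 71.4 CPM in the shSCR libraries. A list of 10 leukocyte markers summed to 59.6, 26.3 and 337 CPM in shPostn, against 83.7, 61.1 and 39.2 CPM in shSCR. shPostn replicate 3 was also highest in summed erythroid (27.6 CPM), endothelial (7.885 CPM) and B cell markers (1.946 CPM). It was highest too in T and NK cell (4.092 CPM), keratinocyte (2.595 CPM) and mesenchymal markers (49140 CPM). Neutrophil markers were highest in shPostn replicate 1 (7.179 CPM, against 6.388 CPM in shPostn replicate 3). Each macrophage and leukocyte marker was tested, and none of them is at 0 in all libraries. Of the macrophage and leukocyte markers 0 passed in edgeR, beside 10.1% of all genes, and 0 in DESeq2, beside 15.4%. At an unadjusted p under 0.05 in edgeR there were 0, beside 13.5% lower and 13.4% higher among all genes. With shPostn libraries between 53.1 and 1100.0 CPM in the macrophage sum, a count of 0 does not show that the groups are alike. shPostn replicate 2, which had the lowest macrophage level, also lay below every shSCR library in the ribosomal protein median. The part of these cells in the family's level was not tested.

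**Figure D3:**
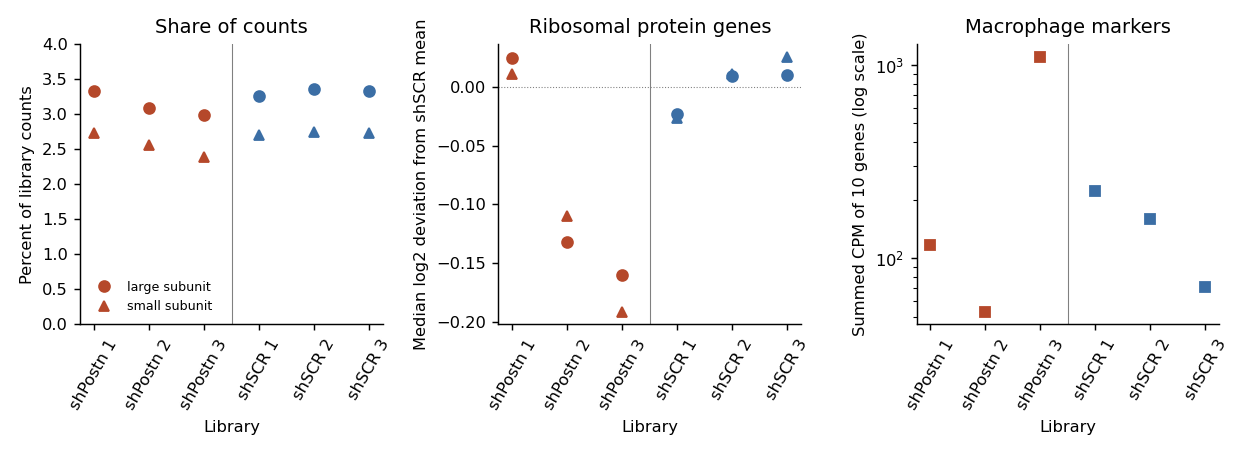
Left, percent of each library's counts on large-subunit (circles) and small-subunit (triangles) genes; middle, the median log2 deviation of the same genes from their shSCR mean; right, summed CPM of 10 macrophage markers on a log scale (shPostn in red, shSCR in blue). shPostn replicate 3 has the lowest share, 2.98% large and 2.38% small, and the highest macrophage level, 1100.0 CPM. In the left panel, shPostn replicate 1 lies within the shSCR range for the large and for the small subunit.

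Levels between genes were compared on a TPM-like scale, as counts divided by the length of the principal transcript and scaled to the same total in each library. On it the median gene stood at 1461 in shPostn and 1506 in shSCR, with quartiles of 916 and 2216 in shPostn and 984 and 2263 in shSCR. Rps2, at the entry of the messenger RNA channel, was the highest, at 6900.0, 7521 and 6596 in shPostn, against 7185, 7259 and 6844 in shSCR. Rplp1, of the acidic stalk that recruits translation factors, came next with group means of 4893 in shPostn and 5197 in shSCR. The stalk's base protein Rplp0 had 4217 in shPostn and 4443 in shSCR. The levels of Rplp0 and Rplp1 overlap in the shPostn libraries and not in the shSCR libraries. This order depends on the length used. Per coding length Rpl41 was the highest, at 8013 in shPostn and 8361 in shSCR, and Rps2 came next, at 4376 and 4496. In CPM, which is not corrected for length, Rps2 had 3378 ± 263 in shPostn and 3454 ± 68.3 in shSCR, and Rplp0 had 2529 ± 296 in shPostn and 2686 ± 136 in shSCR. Rpsa, the protein also known as the laminin receptor, had 2459 ± 351 CPM in shPostn and 2439 ± 36.5 CPM in shSCR, and Rpl3, beside the catalytic centre, had 1807 ± 154 CPM in shPostn and 1844 ± 51.7 CPM in shSCR (SD, n = 3 each). None of these 4 passed, and their log2 fold changes lay between −0.087 and 0.012.

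Some of the lowest levels, those of Rpl5, Rps27 and Rps12 among them, belong to genes with near-identical copies elsewhere that hold most of the joint counts. Mammalian genomes hold many retrocopies of ribosomal protein genes, and a search of the annotated transcripts for sequences at least 90% identical over at least 80% of a coding sequence found 967 such rows for 78 of the 83 genes, 954 of them annotated as pseudogenes. Together these rows held 0.603 ± 0.038% of counts in shPostn and 0.648 ± 0.020% in shSCR (SD, n = 3 each). Of the 65 tested, 0 passed in edgeR, beside 10.1% of all genes. At an unadjusted p under 0.05, 5 were higher and 5 lower, beside 13.4% higher and 13.5% lower among all genes. DESeq2 called 3 of the 65 (Gm7536, Rpl15-ps3 and Rps23-ps1), where it called 15.4% of all genes. For 63 ribosomal protein genes over 99% of the joint counts lay on the gene itself. Rps27 is among the 63 because Rps27rt, its identical copy, belongs to the family and was not counted as a copy; Rps27rt held most of the counts of that pair. For 6 genes under 50% did. Rpl5, which binds the smallest ribosomal RNA, kept 2.97%, 2.81% and 3.35% of its joint counts in shPostn, against 2.66%, 3.48% and 3.21% in shSCR, the rest lying almost wholly on Gm15500, a pseudogene of chromosome 7 that is 100% identical over the aligned sequence. Its own level was 29.4 ± 2.35 CPM in shPostn and 32.6 ± 4.45 CPM in shSCR. With the copies added it had 997, 959.7 and 937 CPM in shPostn, against 1041, 1039 and 1063 CPM in shSCR (log2 fold change −0.12, SE 0.070, adjusted p = 0.341). Rps12 kept 5.21% of its joint counts beside Rps12-ps3 of chromosome 19, and its own row measured 35.7 ± 3.38 CPM in shPostn and 35.3 ± 1.88 CPM in shSCR. Rpl12 kept 7.59% beside Gm10275 of chromosome 10, Rpl10 26.4% beside Rpl10-ps3 of chromosome 9, Rps13 33.5% beside Rps13-ps1 of chromosome 8, and Rpl27a 41.3% beside Gm7536 of chromosome 3. Rps12-ps3 and Rpl10-ps3 are annotated as protein-coding in GENCODE M21 despite their symbols.

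Summing each gene with its copies left 82 genes, since Rps27 and Rps27rt became 1. The same 4 genes passed, and the family's median log2 fold change was −0.079. Rpl12 and Rps16, which came nearest to the threshold on their own rows, moved away from it: Rpl12 had −0.21 (adjusted p = 0.174) and Rps16 −0.24 (adjusted p = 0.161). The lowest level per length was then that of the paralog Rpl7l1, at 90.7 in shPostn and 88.8 in shSCR. Counts for the 20 ribosomal protein genes that kept under 99%, and for Rps27 and Rps27rt, are uncertain in the division between gene and copy.

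**Figure D4:**
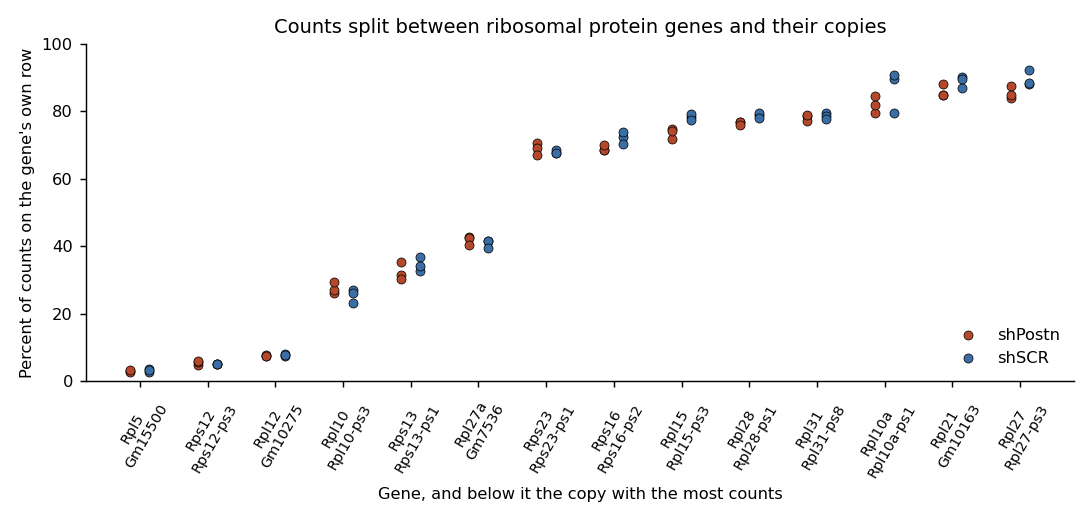
Percent of the joint counts of a gene and its near-identical copies that lay on the gene's own row, for the 14 genes under 90% (each point 1 library; shPostn in red, shSCR in blue), with the copy holding the most counts named below each gene. Rpl5, Rps12 and Rpl12 lie below 10% in every library, and the groups lie close together for each of these 3 genes.

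The gene nearest above the limit of 10 CPM shows the same division. Rps27, a zinc-finger protein of the small subunit (chr3:90212522-90213651, minus strand), measured 6.62, 8.49 and 13.1 CPM in shPostn, against 6.69, 15.5 and 11.0 CPM in shSCR. Its coding sequence is identical, base for base, to that of Rps27rt (chr9:114982366-114982739, minus strand), which took 98.4%, 97.5% and 96.2% of the joint counts in shPostn, against 98.1%, 95.8% and 97.2% in shSCR. Rps27rt measured 354 ± 34.0 CPM in shPostn and 364 ± 15.8 CPM in shSCR (SD, n = 3 each). The paralog Rps27l (chr9:66946086-66949516, plus strand), a p53 target in human cells, differs at 60 of 252 bases (76.19% identity), so that most reads over it can be told apart. It measured 54.0, 51.6 and 47.2 CPM in shPostn, against 48.0, 50.5 and 46.7 CPM in shSCR, with overlap (log2 fold change 0.072, SE 0.071, adjusted p = 0.564), in cells made from p53KO mice. The coding sequences without the stop codon are shown from the GENCODE M21 transcripts, with the bases of Rps27l that differ from Rps27 in capitals.
Rps27, also Rps27rt: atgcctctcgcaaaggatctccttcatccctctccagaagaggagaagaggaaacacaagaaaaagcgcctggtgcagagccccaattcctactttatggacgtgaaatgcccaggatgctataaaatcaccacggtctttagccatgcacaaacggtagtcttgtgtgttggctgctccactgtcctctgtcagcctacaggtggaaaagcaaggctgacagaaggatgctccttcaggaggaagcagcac
Rps27l: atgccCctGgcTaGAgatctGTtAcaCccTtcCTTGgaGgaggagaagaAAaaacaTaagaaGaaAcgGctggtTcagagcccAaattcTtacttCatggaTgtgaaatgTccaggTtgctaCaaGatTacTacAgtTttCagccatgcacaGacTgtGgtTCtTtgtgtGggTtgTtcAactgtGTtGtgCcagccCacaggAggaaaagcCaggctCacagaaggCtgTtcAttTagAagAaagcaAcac

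The pair of Rpl36a and Rpl36al shows a shift of balance between paralogs on different chromosomes. Rpl36a lies on chromosome X (chr X, 134585654 to 134588062, plus strand) and measured 206, 179 and 178 CPM in shPostn, against 215, 211 and 204 CPM in shSCR, overlapping through shPostn replicate 1 (log2 fold change −0.16, SE 0.075, adjusted p = 0.217). Of the CPM of both genes together, Rpl36al took 36.4%, 38.4% and 38.3% in shPostn, against 28.0%, 29.2% and 27.5% in shSCR (37.7 ± 1.12% and 28.2 ± 0.85%, SD, n = 3 each). The groups do not overlap, and the difference is larger than the spread in either. Since Rpl36al was singled out by its call in the same libraries, this share is a description. The coding sequences are both 318 bases long and differ at 39 of them (87.74% identity), so that most reads of the pair can be told apart. Their first 180 bases hold 30 of the differences, shown in capitals in Rpl36al.
Rpl36a: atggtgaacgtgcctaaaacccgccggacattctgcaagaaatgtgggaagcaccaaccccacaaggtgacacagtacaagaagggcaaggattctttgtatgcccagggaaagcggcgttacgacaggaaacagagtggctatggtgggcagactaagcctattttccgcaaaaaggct
Rpl36al: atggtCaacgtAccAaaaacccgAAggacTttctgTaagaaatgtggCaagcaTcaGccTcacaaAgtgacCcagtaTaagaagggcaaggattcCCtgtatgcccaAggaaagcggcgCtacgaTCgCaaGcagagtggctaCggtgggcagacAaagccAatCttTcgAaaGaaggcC

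The shares of the other paralogs differed between the groups by no more than their spread. Rpl7l1, on chromosome 17, took 12.1 ± 0.93% of the CPM it shares with Rpl7 in shPostn and 11.7 ± 0.46% in shSCR, and neither Rpl7l1 (103 ± 3.78 CPM in shPostn, 102 ± 4.73 CPM in shSCR) nor Rpl7 (749 ± 54.6 CPM in shPostn, 770.2 ± 4.18 CPM in shSCR) passed. Rpl22l1, on chromosome 3, took 10.1 ± 0.75% of the CPM it shares with Rpl22 in shPostn and 10.9 ± 0.93% in shSCR. Rpl22 encodes a large-subunit protein that also binds other RNAs. Rpl22l1 measured 46.5, 45.0 and 39.6 CPM in shPostn, against 47.5, 52.1 and 54.5 CPM in shSCR, with no overlap but no call (log2 fold change −0.23, SE 0.086, adjusted p = 0.133). Of the paralogs known for expression in muscle or testis, Rpl3l and Rpl10l had 0 counts in all libraries, and Rpl39l, nearest below the limit, had 1, 2 and 8 counts in shPostn and 3, 4 and 1 in shSCR.

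Transcript starts were compared for the TOP motif, because it is the feature through which these messenger RNAs are controlled together. RefSeq promoter sequences (GRCm38.p6) matched 63 of the 83 genes. A start on C followed by at least 4 further pyrimidines, read on the sense strand from the annotated first base, was found for 15 of them (23.81%), beside 2.96% of 26962 other genes. The letters CTTT, on either strand within 15 bases of the start, were found for 27 (42.86%), beside 25.27% of the other genes. On the sense strand alone they were found for 23 (36.51%), beside 13.75%. Such a match depends on the annotated start being exact and is a description, not a site. The windows run from 20 bases before to 15 bases after the start, and capitals mark the unbroken run of pyrimidines from the first transcribed base. They show the gene of chromosome 4 that fell, genes of chromosome 12, the Rps27 pair and 3 genes with a clear run whose log2 fold changes lay between −0.17 and −0.0047.
Rps6, chr4:86857353-86857387, minus strand: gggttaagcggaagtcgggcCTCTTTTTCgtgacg
Rpl36al, chr12:69184053-69184087, minus strand: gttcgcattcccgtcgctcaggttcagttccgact
Rps7, chr12:28635939-28635973, minus strand: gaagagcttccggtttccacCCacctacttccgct
Rps27, chr3:90213634-90213668, minus strand: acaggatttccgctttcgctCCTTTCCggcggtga
Rps27rt, chr9:114982725-114982759, minus strand: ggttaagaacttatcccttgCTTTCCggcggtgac
Rpl28, chr7:4792945-4792979, plus strand: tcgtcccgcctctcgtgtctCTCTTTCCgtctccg
Rplp2, chr7:141447631-141447665, plus strand: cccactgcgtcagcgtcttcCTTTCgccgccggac
Rpl38, chr11:114668560-114668594, plus strand: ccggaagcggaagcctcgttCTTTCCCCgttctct

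Rps6, which fell, carries a run of 9 pyrimidines at its annotated start, as Rpl28 and Rpl38, which did not pass, carry runs of 8. Rpl36al, which was higher, has a purine at its annotated start and no run. Rps14 and Rpl17, which fell more than Rps6, are not among the 15 genes with the motif, though only 63 of the 83 genes had a matched promoter sequence. Any link between the run and the direction of a change was not tested. Upstream of the start the Rps27 and Rps27rt windows differ, while their first transcribed bases read alike once shifted by a base.

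Other messenger RNAs of the TOP class gave no call. Of 21 tested genes in that list, which holds elongation and initiation factors, Tpt1, Npm1 and others, 0 passed in edgeR or DESeq2, where edgeR called 10.1% of all genes. At an unadjusted p under 0.05, 1 was lower and 0 were higher, beside 13.5% lower and 13.4% higher among all genes. The median log2 fold change was 0.017. Eef1a1, the elongation factor that brings transfer RNA to the ribosome, had a log2 fold change of −0.069 (SE 0.097, adjusted p = 0.694), and Eef2, the translocation factor, had 0.017 (SE 0.086, adjusted p = 0.925). Rack1 encodes a ribosomal protein under a name outside the rule and had −0.050 (adjusted p = 0.716).

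Among 15 regulators of TOP translation, 1 passed, where 10.1% of all genes passed. Eif4ebp1, the mTOR target that holds the cap-binding factor in check, fell to 140, 118 and 138 CPM in shPostn, against 192, 184 and 173 CPM in shSCR (log2 fold change −0.47, SE 0.085, adjusted p = 0.0176). It lies on chromosome 8 and passed with the chromosome medians taken out (−0.45, adjusted p = 0.0319). Without shSCR replicates 1, 2 and 3 its adjusted p was 0.0711, 0.0855 and 0.0534. Those fits called 3.3%, 2.36% and 3.1% of all genes. The log2 fold change of Larp1 was −0.0057 (adjusted p = 0.966), and that of Mtor, on chromosome 4, was −0.24 (adjusted p = 0.0558).

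Among 20 chaperones and assembly factors of ribosomal proteins, 2 were lower, where 10.1% of all genes passed. Mrto4, an assembly factor of the large subunit on chromosome 4, measured 55.0, 48.4 and 50.5 CPM in shPostn, against 64.4, 64.2 and 66.0 CPM in shSCR (log2 fold change −0.34, SE 0.064, adjusted p = 0.0214), and did not pass with the chromosome medians taken out (−0.20, adjusted p = 0.128). Bysl, an assembly factor of the small subunit on chromosome 17, measured 27.2, 26.2 and 25.1 CPM in shPostn, against 32.1, 33.9 and 32.3 CPM in shSCR (−0.32, SE 0.068, adjusted p = 0.0297), and passed with the medians taken out (−0.36, adjusted p = 0.0342). Neither passed without shPostn replicate 2 (adjusted p 0.0673 for Mrto4 and 0.0784 for Bysl), nor without shSCR replicate 1, 2 or 3 (0.0792, 0.0886 and 0.0922 for Mrto4, and 0.0902, 0.119 and 0.0943 for Bysl). The fit without shPostn replicate 2 called 4.89% of all genes, and those without shSCR replicates 1, 2 and 3 called 3.3%, 2.36% and 3.1%.

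The proteins of the mitochondrial ribosome, which is built from a separate set of nuclear genes, gave 0 calls in edgeR among 78 tested, where 10.1% of all genes passed. At an unadjusted p under 0.05, 3 were lower and 4 higher, beside 13.5% lower and 13.4% higher among all genes. DESeq2 called 1, Mrps6. Their median log2 fold change was −0.038. The gene of highest CPM, Mrpl37 of chromosome 4, measured 84.7 ± 1.53 CPM in shPostn and 98.2 ± 7.59 CPM in shSCR (adjusted p = 0.0988), and Mrpl9 65.0 ± 0.73 CPM in shPostn and 69.3 ± 2.58 CPM in shSCR (adjusted p = 0.344; SD, n = 3 each).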

How the data were processed

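RNA of 3 shPostn and 3 shSCR libraries was analysed. Values are estimated counts for Ensembl genes as deposited. Per the submitters' processing notes the authors used Salmon and mm10, with no version or transcript set named in those notes. Per the labels' protocols, libraries were strand-specific and from poly(A) RNA. All counts were whole (0 were not). IDs were matched to GENCODE M21 on GRCm38 (35493 rows).

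edgeR 4.0.16 in R 4.3.3 was run on all genes passing filterByExpr (minimum count 10) with TMM factors, a robust quasi-likelihood F-test of shPostn against shSCR and Benjamini-Hochberg adjustment at 0.05, after a check on simulated data. A log2 fold change is shPostn over shSCR, and its SE is that value's size over the root of F. Chromosome medians use genes above 4 CPM without the ribosomal protein genes; medians by library use log2(CPM + 0.5). Copies were found with BLAST 2.17.0. An antisense or overlapping gene can take reads of a gene where strand was not used in counting, which is not stated. Reads carry no molecular identifiers.

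The genes and lists were chosen with earlier results of these data known. Text names every called gene, those on chromosomes 12 and 18, the 5 highest and 3 lowest in CPM, paralogs with their parents, those beside the 10 CPM limit, 2 per further list and Postn. The results of some genes are not reported here. Genes of chromosomes 4 and 7, Rpl12, Rps16, Rpl24 and those given with copies were named after their values were seen. Alternatives were other scalings and filters, DESeq2 1.42.0, limma-voom (limma 3.58.1), a replicate block, chromosome medians taken out, each library left out and, chosen after seeing the data, copies summed. Figures used Python 3.11.15, pandas 2.3.3 and matplotlib 3.10.9.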

Additional observations from a re-analysis of the deposited data

How the results depend on the processing

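Across 448 alternative values of the named genes, 393 kept direction and side of the threshold, 32 lost the threshold, 3 gained it and 20 changed sign. Among the ribosomal protein genes, 1 was called higher (0 with chromosome medians taken out; 1 to 3 with a library left out) and 3 lower (8 in DESeq2, where 15.4% of all genes passed, and 0 with chromosome medians taken out; 0 to 8 with a library left out). Calls in the further lists with a library left out numbered 0 to 1 for other TOP genes, 0 to 2 for TOP regulators, 0 to 2 for assembly factors and 0 to 1 for mitochondrial ribosomal proteins. TOP regulators gave 2 with upper quartile factors and 2 in DESeq2, assembly factors gave 1 with chromosome medians taken out, and mitochondrial ribosomal proteins gave 1 without a count filter and 1 in DESeq2. Over all genes, the fits with a library left out called 2.36% to 17.1%, beside 10.1% with all libraries. Those with chromosome medians taken out, upper quartile factors and no count filter called 5.06%, 10.4% and 6.62% of all genes. The family's median log2 fold change lay between −0.13 and −0.031. As a share of nuclear protein-coding counts the family took 5.92% in shPostn and 6.31% in shSCR. Per coding length the median gene stood at 1320 in shPostn and 1446 in shSCR. The rule gave 83 genes with library totals too.

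Sign changes among those 448 values concerned genes that did not pass. With chromosome medians taken out these were Rps29 (−0.042), Rps7 (−0.12), Rpsa (−0.0022), Rpl7l1 (−0.018) and Rpl22 (0.031). With upper quartile factors they were Rpsa (−0.0080), Rps12 (−0.0039), Rpl7l1 (−0.0040) and Eef2 (−0.0029), and with copies summed Rps12 (−0.092). With a library left out the values ran from −0.073 to 0.031 for Rps2, −0.099 to 0.11 for Rpsa, −0.095 to 0.027 for Rpl3, −0.55 to 0.088 for Rps27, −0.065 to 0.058 for Rps12, −0.022 to 0.044 for Rpl7l1, −0.099 to 0.0043 for Rpl7 and −0.038 to 0.054 for Eef2. The cause of the changes not named above was not tested.

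Replicate numbers are shared by both groups, but same-numbered libraries did not deviate together (correlations of −0.060, −0.086 and −0.46), so the numbers were not treated as pairs. A fit with the replicate block called 735 of all genes, Rpl36al higher and 2 lower (Rps14 and Rpl17), with Rps6 at an adjusted p of 0.0942 and Postn at 0.0592, and 0 assembly factors.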
